A study of Mus musculus with 2 samples.

Results

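The genes described here are those of the Wnt, Notch, BMP and TGF-beta signalling families, with a Hedgehog gene, in neural crest-derived cells and the remaining cells of the neonatal cochlear lateral wall. They were chosen by symbol, from a fixed set of name stems (Wnt, Fzd, Dkk, Sfrp, Rspo, Notch, Jag, Dll, Hes, Hey, Bmp, Gdf, Tgfb, Smad, Id and the like). The rule found 49 of the 4197 genes in the deposited table, against 141 protein-coding genes of the mouse annotation whose names it matches.

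GFP positive cells were sorted from lateral walls of mice at postnatal day 0 whose genotype is labelled wnt1CRE::Ai3. GFP negative cells came from lateral walls at the same age, with the genotype labelled wnt1CRE::Ai4, while the extraction text of both samples names wnt1CRE::EYFP mice. Both fractions therefore come from animals with the Wnt1-Cre driver, which is active in the early neural crest, so that its descendants in the lateral wall, the pigment-bearing intermediate cells of the stria vascularis and also Schwann cells, can carry the reporter. GFP negative cells are a mixture of the other lateral wall cells. The sources used here do not give strain, sex or the number of animals per sample.

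The labels list 1 sample for each fraction, marked 68K for GFP positive and 180K for GFP negative cells, while the table's columns carry 180K for both. What these marks mean is not stated, so whether the fractions are like preparations cannot be told. For each gene the table gives 1 GFP negative value and the authors' GFP positive mean, which averages 2 libraries, here called A and B. All values below are normalised read counts unless another scale is named, and a fold is the GFP positive mean over the GFP negative value or its inverse, with an exact binomial 95% interval that covers counting error only. With 1 GFP negative library no difference has a replicate check. The table lists only genes with an adjusted p of at most 0.00986 and at least a 2-fold difference by the authors' own test, so unlisted genes are without a value here. For a gene listed as lower, a mean at least 2-fold below the GFP negative value leaves neither library above it. Agreement of A and B in direction is then fixed by the listing. Listed genes held 17120511 reads in library A, 16584559 in library B and 12114107 in the GFP negative library.

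Wnt ligands bind Frizzled receptors together with Lrp5 or Lrp6, which stabilises beta-catenin and lets it activate genes with Tcf and Lef factors. Notch receptors are cleaved when a Jagged or Delta ligand on a neighbouring cell engages them, and the freed fragment switches on Hes and Hey repressors with Rbpj. BMP and TGF-beta ligands signal through paired receptor kinases to Smad proteins, with Id genes and the inhibitory Smads among the common BMP targets. In the neural crest, Wnt signals favour the melanocyte lineage, and Notch signalling through Rbpj is needed to keep melanoblasts.

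Signalling genes were mostly lower in GFP positive cells. Of the 49 members 8 were higher and 41 lower, which is 83.7% lower. Of all listed genes, 43.6% were higher and 56.4% lower. A difference of 4-fold or more, on log2(value + 1) where the higher fraction reached 5, was found for 5 members in favour of GFP positive cells (10.2% of the 49, against 18.1% of listed genes) and for 32 in the other direction (65.3%, against 36.9%). After centring on the median listed gene these counts were 8 and 9, against 43.6% and 11.1% of listed genes. That shift brings every gene listed as higher past 4-fold, so the first count repeats the number listed as higher. The median log2 ratio of the members was -2.33, and that of all listed genes was -1.34. Lower genes were the majority in each pathway, at 15 of 18 Wnt members, 5 of 6 Notch members and 20 of 24 BMP and TGF-beta members. The 8 higher genes were Fstl4, Dkk3, Sfrp5, Bmp7, Hey2, Id4, Tgfb1 and Wnt5b. In bulk samples, fewer cells of a type and less RNA per cell cannot be told apart.

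**Figure D1:**
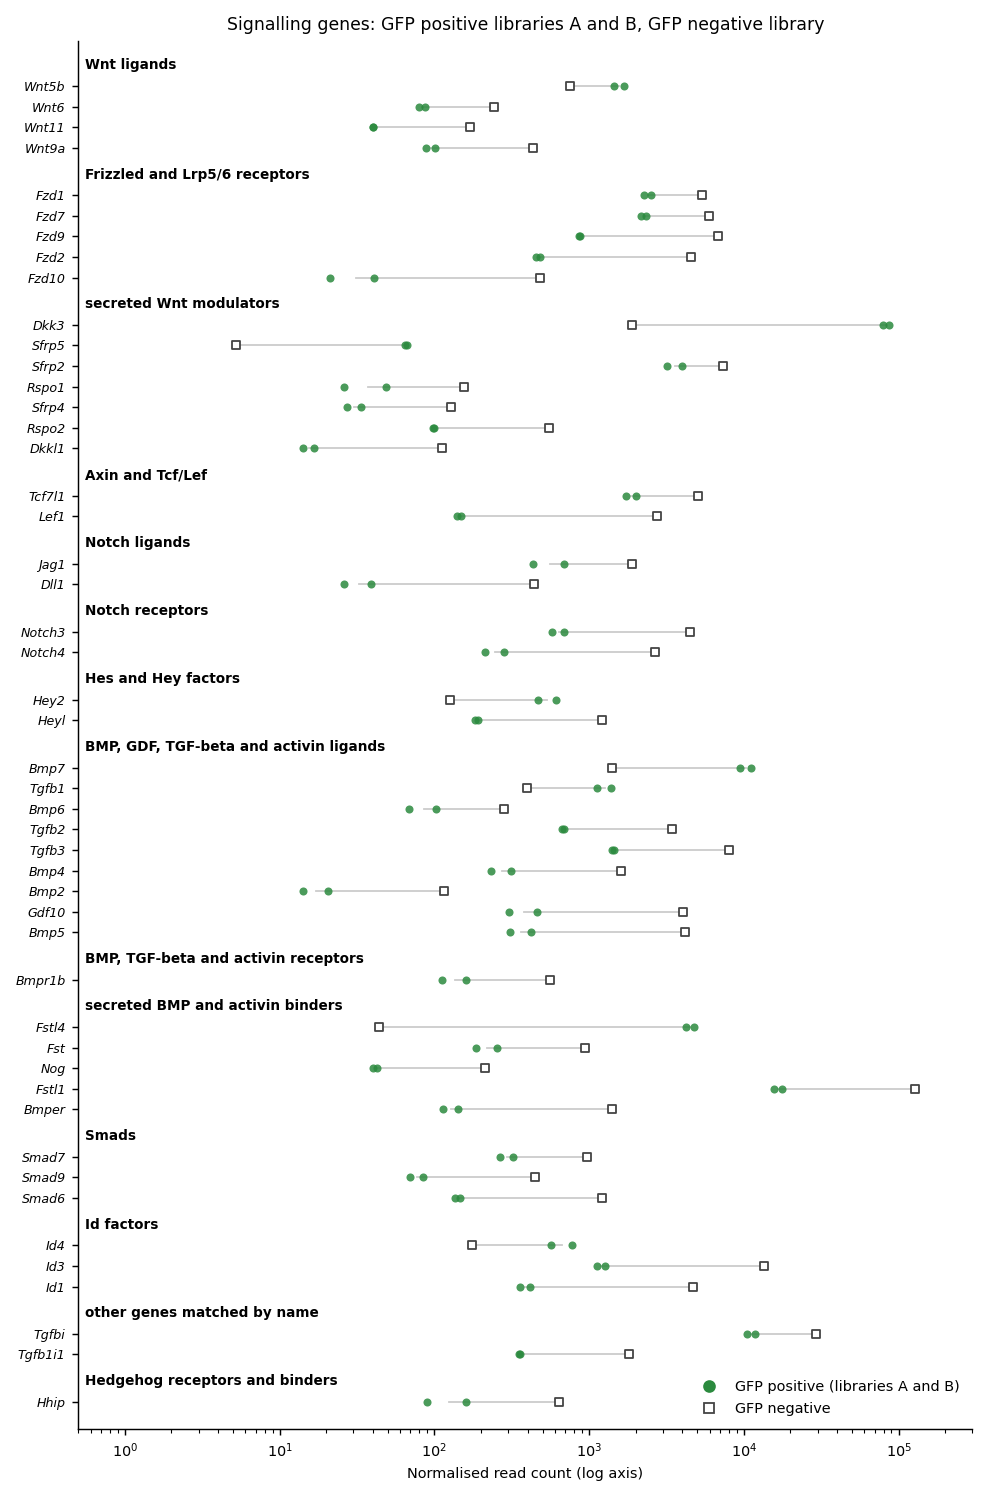
Normalised read count of 48 of the 49 members on a log axis, by role. Filled circles are GFP positive libraries A and B, open squares the GFP negative library, and the grey line joins the GFP positive mean to the GFP negative value. For all 48 plotted genes libraries A and B lie both above or both below the GFP negative square, as for 100% of the 4197 listed genes. For lower genes the listing threshold fixes this in advance.

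Among the 141 annotated genes that the rule matches, 34.8% were listed, against 17.4% of protein-coding genes in the annotation. Listing needs expression as well as a difference, and no share among genes of like expression was computed. Whether this share sets signalling genes apart was not tested. The listed share was uneven between roles. Of 13 receptor genes for BMP, TGF-beta and activin only Bmpr1b was listed, and of 19 Wnt genes 4 were listed. Wnt1, whose regulatory sequence drives Cre here, was not listed, nor were Notch1, Notch2, Axin2, Hes1, Id2, Ptch1 or Smo.

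**Figure D2:**
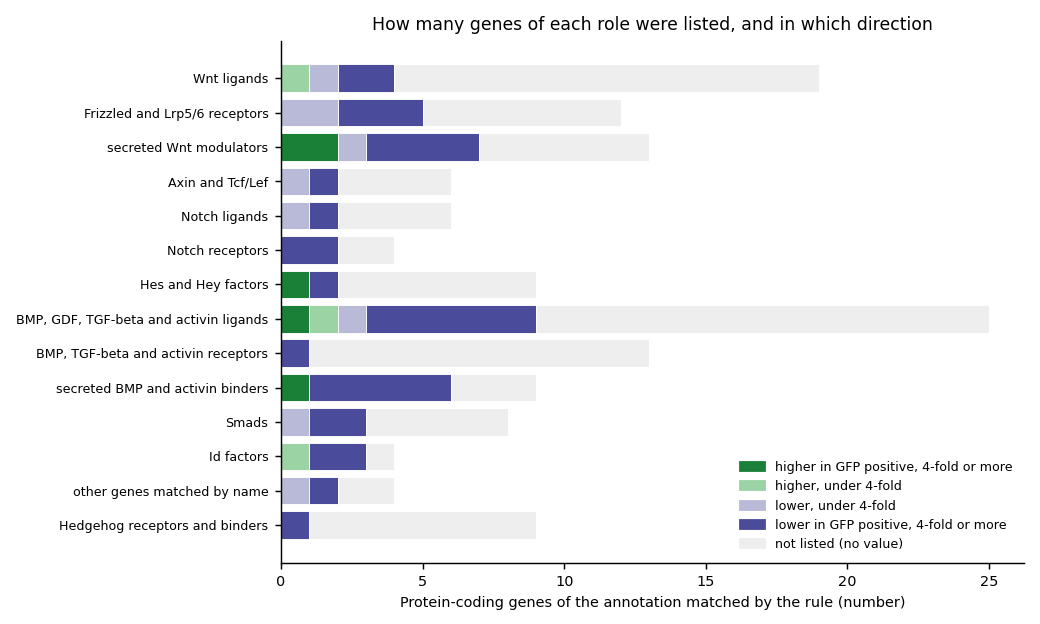
Number of annotated protein-coding genes matched in each role, split into those higher in GFP positive cells, those lower and those not listed. The rows for receptors of BMP, TGF-beta and activin and for Hedgehog are mostly unlisted, with 1 listed gene each.

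Promoter windows are shown for 4 members because their families or pathways split by direction or because they mark an end of the range: Hey2 and Id4 were higher in GFP positive cells, Id3 and Lef1 lower. The runs are RefSeq sequence of build GRCm38.p6, 250 bases up to the transcription start, 5′ to 3′ on the strand of the gene. Capitals mark the letters GTGGGAA, the motif of Rbpj, GGCGCC, a GC-rich motif of BMP Smads, and CTTTGA, the motif of Tcf and Lef factors, on either strand, and the Id3 run holds none of them. Hey2 lies at chr10:30842784-30843033 on the minus strand, Id4 at chr13:48260866-48261115 on the plus strand, Id3 at chr4:136143572-136143821 on the plus strand, and the most upstream Lef1 window at chr3:131110047-131110296 on the plus strand.
Hey2: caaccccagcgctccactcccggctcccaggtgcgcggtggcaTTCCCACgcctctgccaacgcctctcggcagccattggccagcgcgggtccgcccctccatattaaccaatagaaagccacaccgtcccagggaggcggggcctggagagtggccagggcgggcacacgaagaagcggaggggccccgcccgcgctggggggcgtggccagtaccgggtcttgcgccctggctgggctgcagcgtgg
Id4: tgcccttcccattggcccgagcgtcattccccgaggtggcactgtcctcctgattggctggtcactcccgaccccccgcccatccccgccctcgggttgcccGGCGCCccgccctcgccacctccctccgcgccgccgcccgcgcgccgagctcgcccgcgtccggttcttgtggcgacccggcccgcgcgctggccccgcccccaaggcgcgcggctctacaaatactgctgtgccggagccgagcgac
Id3: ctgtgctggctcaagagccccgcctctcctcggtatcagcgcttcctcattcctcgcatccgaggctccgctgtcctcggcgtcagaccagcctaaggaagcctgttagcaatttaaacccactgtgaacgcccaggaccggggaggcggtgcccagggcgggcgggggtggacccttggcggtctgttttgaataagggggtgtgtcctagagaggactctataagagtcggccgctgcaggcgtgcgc
Lef1: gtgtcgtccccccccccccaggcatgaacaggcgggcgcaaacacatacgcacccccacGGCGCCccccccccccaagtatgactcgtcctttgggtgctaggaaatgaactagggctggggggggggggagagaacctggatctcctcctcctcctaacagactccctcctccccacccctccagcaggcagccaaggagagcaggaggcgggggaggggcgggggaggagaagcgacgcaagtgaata

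A window was found for 35 of the 49 members. GTGGGAA stood in 4 of these 35 (Hey2, Smad9, Tcf7l1 and Wnt9a), against 6.18% of all 27025 genes with a window. GGCGCC stood in 10 of 35, 9 of them lower and 1 higher in GFP positive cells, against 10.85% of all genes. It was found for Dll1, Fzd9, Fzd10, Id4, Lef1, Rspo1, Smad9, Tgfbi, Wnt9a and Wnt11. CTTTGA stood in 5 of 35 (Bmper, Fzd1, Lef1, Wnt5b and Wnt11), against 15.8% of all genes, and for Lef1 it lay at a start further downstream than the one shown. Of 4 further motifs, the Sox motif ACAAAG stood in 8 of 35 against 18.6% of all genes and the E-box CACGTG in 6 of 35 against 6.86%. The Smad box GTCTAGAC and the M-box TCATGTG, a motif of Mitf, were in 0 of 35 windows, against 0.200% and 3.72% of all genes. A gene with several starts counted once if any window held the motif, and a match is a description of the letters, not of binding.

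Wnt ligands separated by gene. Wnt5b, a ligand of mainly beta-catenin-independent signalling, stood at 1454 in library A and 1679 in library B of GFP positive cells, against 748 in GFP negative cells. Both GFP positive libraries lay above the GFP negative one, and the mean was 2.10-fold higher (1.93 to 2.28). The other 3 listed ligands lay below the GFP negative library in both, which the listing threshold fixes for lower genes. Wnt9a, known from joint and skeletal development, stood at 101 and 87.8 in GFP positive cells against 435 in GFP negative cells, which is 4.60-fold lower (3.87 to 5.48). Wnt11, a ligand of cell movements in the embryo, stood at 40.02 and 40.4 against 169, 4.21-fold lower (3.21 to 5.55), and Wnt6 at 79.1 and 86.8 against 241, 2.91-fold lower (2.38 to 3.56). Per kilobase of exon, Wnt5b was the most abundant of the 4 in both fractions, at a level of 590.2 in GFP positive and 282 in GFP negative cells, and Wnt11 the least abundant, at 9.71 and 40.9.

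All 5 listed Frizzled receptors were lower in GFP positive cells, 3 of them by 4-fold or more, and their order of abundance differed between the fractions. Fzd10 was furthest apart, at 41.0 in library A and 21.2 in library B against 480.3 in GFP negative cells, which is 15.5-fold lower (11.9 to 20.4). Libraries A and B differed 1.93-fold for this gene, the highest ratio of A to B among the members, and both stayed far below the GFP negative value. Fzd2 stood at 457 and 482 in GFP positive against 4528 in GFP negative cells, 9.64-fold lower (8.99 to 10.3). Fzd9 stood at 879.5 and 862 against 6838, 7.85-fold lower (7.45 to 8.28). Differences were smaller for the other two. Fzd7 stood at 2178 and 2322 in GFP positive against 5956 in GFP negative cells, 2.65-fold lower (2.55 to 2.75), and Fzd1 at 2268 and 2505 against 5363, 2.25-fold lower (2.16 to 2.34). The log2 ratio of Fzd1 was -1.17, and 0.15 after centring on the median listed gene. Per kilobase of exon, GFP positive levels ran from 569 for Fzd1 and 496 for Fzd7 through 379.7 for Fzd9 and 128 for Fzd2 to 9.56 for Fzd10. In GFP negative cells Fzd9 came first, at 2982 per kilobase, and Fzd7, Fzd1 and Fzd2 followed close together at 1314, 1278 and 1236, with Fzd10 last at 148.

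The secreted Wnt modulators held the most abundant higher member. Dkk3, a divergent member of the Dickkopf family of secreted glycoproteins, stood at 79853 and 86626 in GFP positive cells against 1880.5 in GFP negative cells, a 44.3-fold higher mean (42.3 to 46.4). Both GFP positive libraries lay far above the GFP negative one. On the per-kilobase scale its level of 24781 in GFP positive cells was above that of every other member there, and in GFP negative cells it was 559.8. Sfrp5, a secreted Frizzled-related Wnt antagonist, was scarce in both fractions, at 64.2 and 66.6 in GFP positive cells against 5.22 in GFP negative cells, which is 5 reads. That is 12.5-fold higher, with a wide interval (5.24 to 39.2), and it was the only member with fewer than 10 GFP negative reads.

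The other 5 modulators were lower in GFP positive cells. Rspo2, an R-spondin that amplifies Wnt signals through Lgr receptors, stood at 99.6 and 97.9 in GFP positive against 548 in GFP negative cells, 5.55-fold lower (4.71 to 6.56). Its relative Rspo1 stood at 48.4 and 26.2 against 156, 4.17-fold lower (3.15 to 5.56), with a log2 ratio of -1.66 in library A alone. The antagonist Sfrp2 stood at 3187 and 3984 against 7284 and showed the smallest lower difference among the members, 2.03-fold (1.97 to 2.10). Its log2 ratio was -1.02, and 0.29 after centring on the median listed gene, and 16.1% of its exon bases overlap Gm26771 on the opposite strand. Whether reads were counted by strand is not given in the sources used here, so reads of a gene and of an opposite-strand neighbour cannot be told apart. Sfrp4 and the Dickkopf-like gene Dkkl1 had few reads, with means of 30.4 and 15.4 in GFP positive cells against 127 and 113 in GFP negative cells.

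Lef1, the transcription factor through which beta-catenin activates many Wnt targets, showed the largest lower difference of all members. It stood at 141 and 149 in GFP positive cells against 2742 in GFP negative cells, which is 18.9-fold lower (16.8 to 21.4). Tcf7l1, a family member known mainly as a repressor, stood at 1720.0 and 2009 against 5068, 2.72-fold lower (2.61 to 2.84). Both libraries lay below the GFP negative one for each gene, which the listing threshold fixes for lower genes. Of the exon bases of Lef1, 13.8% overlap Gm43352 on the opposite strand. Per kilobase, Tcf7l1 was at 475 and Lef1 at 16.5 in GFP positive cells, and at 1292 and 312 in GFP negative cells.

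**Figure D3:**
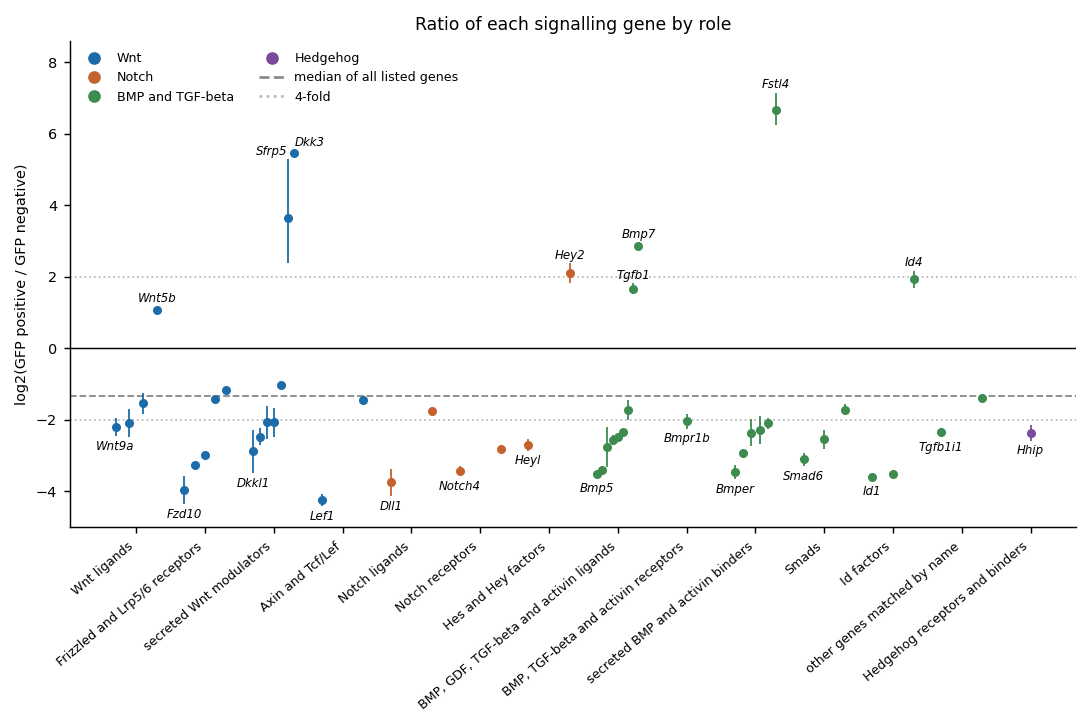
Log2 ratio of the GFP positive mean over the GFP negative value for each member, by role, with exact binomial 95% intervals as vertical lines. Dotted lines mark 4-fold and the dashed line the median of all listed genes (-1.34). Of 49 genes 8 lie above 0, led by Fstl4 and Dkk3, and Lef1 lies lowest.

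All 4 listed genes for Notch receptors and ligands were lower in GFP positive cells. Dll1, a Delta ligand, stood at 39.1 and 26.2 in GFP positive against 439 in GFP negative cells, 13.4-fold lower (10.4 to 17.6), and 20.6% of its exon bases overlap A930024N18Rik on the opposite strand. Jag1, a Jagged ligand with a role in patterning the sensory cochlea, stood at 691 and 435 against 1884, 3.35-fold lower (3.11 to 3.61). The Jag1 difference passed 4-fold in library B alone, with a log2 ratio of -2.11. Notch4, a receptor of endothelial cells, stood at 282 and 212 against 2660.4, 10.8-fold lower (9.79 to 11.9). Notch3, a receptor of mural cells around vessels, stood at 579.8 and 689 against 4472, 7.05-fold lower (6.62 to 7.504). The 2 listed endothelial markers summed to 797 in library A and 756 in library B against 9252 in GFP negative cells, and the 4 pericyte markers to 2097 and 2842 against 34237. The part of these cells in the receptor values was not tested.

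Of the Hes and Hey repressors only Heyl and Hey2 were listed, and they went opposite ways. Hey2 stood at 612 and 464 in GFP positive cells against 125 in GFP negative cells, 4.30-fold higher (3.56 to 5.23), with a log2 ratio of 1.88 in library B alone, just under 4-fold. Heyl stood at 184 and 191 against 1212, 6.47-fold lower (5.76 to 7.27). Per kilobase of exon, Hey2 had a level of 117 and Heyl of 36.7 in GFP positive cells, while in GFP negative cells Hey2 had 27.3 and Heyl 237. The Hey2 window printed above holds the Rbpj letters on its opposite strand.

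Of the listed BMP and GDF ligands that the name rule matches, Bmp7 was higher in GFP positive cells and the others were lower. Bmp15, a ligand outside the name rule, was also higher and is given with the further pathway genes. Bmp7, a ligand of epithelial and renal development, stood at 9412 and 11112 in GFP positive cells against 1402 in GFP negative cells, 7.32-fold higher (6.93 to 7.74). Bmp5 stood at 421 and 309 against 4151, 11.4-fold lower (10.5 to 12.3). Of its exon bases, 46.7% overlap Gm26903 on the opposite strand. Gdf10, also called Bmp3b, stood at 304 and 460.1 against 4022, 10.5-fold lower (9.74 to 11.4). None of these 3 genes had libraries A and B on opposite sides of the GFP negative value, and neither had any other listed gene. For lower genes such as Bmp5 and Gdf10 the listing threshold fixes this. Bmp4, a ligand of otic and skeletal development, stood at 232 and 312 against 1606, 5.91-fold lower (5.36 to 6.52). Bmp2 was scarce, at 20.5 and 14.1 against 116, and Bmp6 stood at 102 and 68.6 against 284, 3.32-fold lower (2.74 to 4.04), with a log2 ratio of -2.03 in library B alone.

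The TGF-beta ligands also split. Tgfb1, the form abundant in platelets and immune cells, stood at 1127 and 1393 in GFP positive cells against 398 in GFP negative cells, 3.17-fold higher (2.84 to 3.54). Tgfb2 stood at 686 and 665 against 3432, 5.08-fold lower (4.77 to 5.41), and Tgfb3 at 1411 and 1442 against 8004, 5.61-fold lower (5.38 to 5.86). Per kilobase of exon, Bmp7 had the highest level in GFP positive cells of the 9 listed ligands that the name rule matches, at 2553, followed by Tgfb3 at 422 and Tgfb1 at 249.9. Bmp15, outside the rule, was at 392 per kilobase in GFP positive cells and at 34.1 in GFP negative cells. In GFP negative cells Tgfb3 came first at 2366 per kilobase, followed by Bmp5 at 1031, with Bmp7 at 349 and Tgfb1 at 78.9.

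The group of secreted BMP and activin binders, which was filled by gene name, held the member with the largest ratio. Fstl4, a follistatin-like gene placed here by its name stem alone, stood at 4214 and 4737 in GFP positive cells against 43.9 in GFP negative cells. That is 102-fold higher (75.4 to 142) and rests on 42 GFP negative reads. Whether its protein binds BMP or activin was not examined. Fstl1, another follistatin-like glycoprotein, made in mesenchyme, had a level of 3385 per kilobase in GFP positive cells, behind Dkk3 there, and of 25843 in GFP negative cells, the highest of all members. Its normalised counts were 15604 and 17668 in GFP positive against 126992 in GFP negative cells, 7.63-fold lower (7.54 to 7.73). Bmper, an extracellular modulator of BMP, stood at 114 and 142 against 1407, 11.0-fold lower (9.64 to 12.6). The BMP antagonist Nog stood at 40.02 and 42.4 in GFP positive against 211 in GFP negative cells, 5.12-fold lower (3.95 to 6.68). Fst, the activin binder follistatin, stood at 186 and 253 against 941, 4.28-fold lower (3.82 to 4.81), and under 4-fold in library B alone (log2 ratio -1.89).

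Receptor and Smad transcripts were lower in GFP positive cells wherever they were listed. Bmpr1b, a type I BMP receptor of cartilage, stood at 161 and 112 in GFP positive against 559 in GFP negative cells, 4.09-fold lower (3.54 to 4.74), and under 4-fold in library A alone (log2 ratio -1.79). Smad6, an inhibitory Smad induced by BMP, stood at 137 and 147 against 1221, 8.59-fold lower (7.55 to 9.80). Smad7, the inhibitory Smad of both branches, stood at 264 and 323 against 964, 3.28-fold lower (2.96 to 3.64). Smad9, which BMP receptors activate, stood at 69.8 and 84.8 against 449, 5.81-fold lower (4.83 to 7.01). The common mediator Smad4 and Smad1, Smad2, Smad3 and Smad5 were not listed.

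Id genes encode proteins that block basic helix-loop-helix factors, and 3 of the 4 were listed. Id1 stood at 412 and 357 in GFP positive cells against 4683 in GFP negative cells, 12.2-fold lower (11.3 to 13.1). Id3 stood at 1266 and 1119.9 against 13599.7, 11.4-fold lower (10.9 to 11.9). Id4 went the other way, at 774 and 566 against 175, 3.82-fold higher (3.25 to 4.51), and past 4-fold in library A alone (log2 ratio 2.14). On the per-kilobase scale Id3 had the highest level of the 3 in both fractions, at 666 in GFP positive and 7593 in GFP negative cells. Id4 was lowest in both, at 174 and 45.6.

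The members Tgfbi and Tgfb1i1 share a name stem with TGF-beta more than a role in its pathway. Tgfbi, a matrix protein induced by TGF-beta, stood at 10446 and 11829.8 in GFP positive against 29326 in GFP negative cells, 2.63-fold lower (2.59 to 2.68). Tgfb1i1, a focal adhesion protein also called Hic-5, stood at 356 and 350.1 against 1799, 5.09-fold lower (4.67 to 5.56). Hhip, a membrane protein that binds and sequesters Hedgehog ligands, was the single listed Hedgehog member. It stood at 89.3 and 160.4 against 643, 5.15-fold lower (4.44 to 5.98), with the lowest ratio of library A to B among the members, 0.557, and just under 4-fold in library B alone (log2 ratio -1.997).

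Other genes of the same pathways, taken from lists written with earlier results of these data known, showed similar shares. Of 178 names 70 were listed, of which GFP positive cells had 11 higher and 59 lower. At 4-fold or more 5 were higher (7.14%, against 18.1% of listed genes) and 42 lower (60%, against 36.9%), and the median log2 ratio was -2.15. After centring on the median listed gene these counts were 11 and 15 of 70, against the same 43.6% and 11.1% of listed genes.

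Wnt pathway genes beyond the families above were lower for 22 of 25 listed (88%, against 56.4% of all listed genes). By 4-fold or more 16 were lower (64%, against 36.9%). Among those that reached a value of 1000, Draxin, an inhibitor of Wnt signalling and axon guidance cue, stood at a mean of 110.5 in GFP positive cells against 1895 in GFP negative cells, 17.2-fold lower (14.9 to 19.8). Notum, a secreted enzyme that inactivates Wnt, stood at 137 in library A and 61.5 in library B against 1449, 14.6-fold lower (12.6 to 17.0), and 29.4% of its exon bases overlap another gene. Wisp1, a matricellular Wnt target, stood at 507 against 7112, 14.0-fold lower (13.1 to 15.0). Tle2, a corepressor of Tcf factors, was 13.5-fold lower (12.9 to 14.2), Ndp, which encodes the Frizzled ligand norrin, 12.4-fold lower (11.2 to 13.8), and the R-spondin receptor gene Lgr6 11.2-fold lower (10.2 to 12.4). Rnf43, a ubiquitin ligase that removes Frizzled receptors, Serpinf1, Gpc4, Frzb, Apcdd1, Gpc6, Dact3 and Ror1 were 8.14-fold to 4.05-fold lower in that order. Tnik, a kinase that works with Tcf7l2, was the single one of this size in the other direction, at 3341 against 666, 5.02-fold higher (4.62 to 5.45).

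Notch pathway genes beyond receptors, Jagged and Delta ligands and Hes or Hey factors went both ways. Of 10 listed genes 5 were higher in GFP positive cells and 5 lower, close to the 43.6% and 56.4% of all listed genes. At 4-fold or more 2 were higher (20%, against 18.1% of listed genes) and 2 lower (20%, against 36.9%). The gamma-secretase complex cuts Notch receptors and many other membrane proteins, and 3 of its genes were listed, all higher in GFP positive cells. Psen2, a catalytic subunit, stood at 10219 and 11083 against 1061, 10.0-fold higher (9.43 to 10.7). Aph1c stood at 3643 and 3853 against 149, 25.1-fold higher (21.3 to 29.8), although reads may be divided wrongly between this gene and its close copy Aph1b, and Aph1a at 2011 and 2174 against 1026, 2.04-fold higher (1.90 to 2.19). Adam10, the protease that makes the preceding cut, stood at 25635 and 26643 against 7336, 3.56-fold higher (3.48 to 3.65). Rbpj, the DNA-binding partner of cleaved Notch, stood at 3178 and 3258 against 6689.7, 2.08-fold lower (2.01 to 2.15). The 2 listed Deltex genes, modifiers of Notch signalling, went opposite ways. Dtx4 stood at 2364 and 2497 in GFP positive against 1084 in GFP negative cells, 2.24-fold higher (2.10 to 2.40), and Dtx1 at 35.4 and 42.4 against 232, 5.96-fold lower (4.60 to 7.80). Dner, a Delta-like and Notch-related transmembrane protein, stood at 403 and 402.6 against 1244, 3.09-fold lower (2.82 to 3.38). The Notch target Nrarp and the modifying enzyme gene Lfng were at means of 86.7 and 62.9 in GFP positive cells and at 241 and 264 in GFP negative cells. Lfng was under 4-fold in library A alone (log2 ratio -1.78). Of the exon bases of Nrarp, 79.4% overlap Gm38287 on the opposite strand. Psen2 and Aph1c meet the naming rule for these lists, and the other 8 listed genes lie outside it and were added after their values were seen.

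BMP and TGF-beta pathway genes that the name rule does not match, a list that holds some further ligands such as Bmp15, were mostly lower. Of 26 listed 24 were lower (92.3%, against 56.4% of all listed genes), 16 of them by 4-fold or more (61.5%, against 36.9%). Tll2, a tolloid-like metalloprotease, stood at 436 in GFP positive cells against 8352 in GFP negative cells, 19.2-fold lower (17.9 to 20.6). The BMP antagonist genes Nbl1 and Chrd were 15.0-fold (14.5 to 15.6) and 10.9-fold (9.68 to 12.2) lower, and Ltbp2, of the latent TGF-beta binding protein family, was 14.7-fold lower (14.0 to 15.4). The small proteoglycans Bgn and Dcn, which bind TGF-beta in matrix, were 9.88-fold and 9.30-fold lower. Htra1, Kcp, Fbn2, Htra3, Thbs1, Vasn and Tgif1 were 12.01-fold to 4.28-fold lower in that order. Bmp15, a ligand known from the oocyte, was higher, at 1206 and 1192 in GFP positive cells against 104 in GFP negative cells, 11.48-fold (9.40 to 14.2). The other higher gene was Rgmb, a BMP co-receptor, at 2463 and 2689 against 1069, 2.41-fold (2.25 to 2.58), which lies outside the naming rule and was added after its value was seen.

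Hedgehog pathway genes were lower for 8 of 9 listed (88.9%), all 8 by 4-fold or more. Of all listed genes 56.4% were lower, and 36.9% by 4-fold or more. Gli2, a transcription factor of the pathway, was 11.1-fold lower (9.93 to 12.3), and the co-receptor genes Boc, Gas1 and Cdon were 10.6-fold (10.0 to 11.2), 4.63-fold (4.49 to 4.77) and 4.10-fold (3.90 to 4.31) lower. Cdon was just under 4-fold in library A alone (log2 ratio -1.999). Gli1, outside the naming rule, was under 4-fold in library B alone (log2 ratio -1.87). Of the exon bases of Gas1, 19.9% overlap Gm48488 on the opposite strand. Scube3 and Scube1, of a family of secreted proteins, were 10.6-fold and 5.26-fold lower. The ligand gene Dhh, which Schwann cells make, was the exception at 466 and 304 in GFP positive cells against 31.3 in GFP negative cells, 12.3-fold higher (8.54 to 18.3). Of its exon bases, 25.2% overlap Gm49442 and 12.4% overlap Rhebl1. Dhh lies outside the naming rule and was picked after its value was seen.

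Markers of other cells were measured beside these genes. In GFP positive cells all 7 pigment cell markers and all 7 Schwann cell and glial markers were higher, with Dct 1040-fold and Erbb3 42.4-fold higher as examples picked after their values were seen. The Schwann and glial markers summed to 111052 in library A and 107303 in library B against 4365 in GFP negative cells. The part of each of these cell types in the 8 higher members was not tested. All 6 fibrocyte and otic mesenchyme markers were lower, at 4.43% to 7.57% of the GFP negative value, and their summed value was 47182 in library A and 36794 in library B against 782070 in GFP negative cells. The 5 cartilage markers summed to 71768 and 61094 against 1.28151e+06 and were at 4.76% to 24.05%. The 4 macrophage markers summed to 672 and 649.8 against 4050 and were at 6.05% to 20.8%. The 4 pericyte markers were at 6.81% to 10.0%, and the 2 listed of 5 endothelial markers, Emcn and Tek, at 5.97% and 24.6%, while Pecam1, Cdh5 and Kdr were not listed. None of the 4 markers of marginal cells and epithelium was listed. The 41 lower members stood at 5.29% (Lef1) to 49.2% (Sfrp2) of their GFP negative value, with a median of 18.01%. Lef1, Fzd10 (6.47%) and Dll1 (7.45%) lay in the ranges of both the fibrocyte and otic mesenchyme markers and the cartilage markers. Fzd10 and Dll1 also lay in the endothelial and macrophage ranges, and Dll1 in the pericyte range. No other lower member lay in the fibrocyte and otic mesenchyme range, but many lay in the other ranges. The pericyte range also held Id1 (8.22%), Id3 (8.77%), Bmp5 (8.79%), Bmper (9.09%), Notch4 (9.28%) and Gdf10 (9.50%). The median of 18.01% lay inside the cartilage, endothelial and macrophage ranges. These ranges overlap, and the part of other lateral wall cells in the lower members was not tested.

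**Figure D4:**
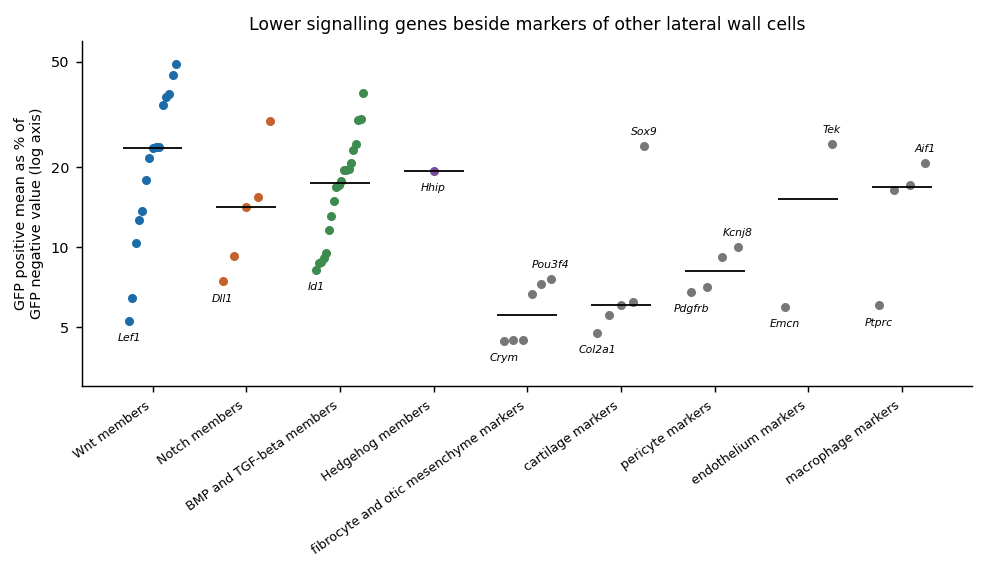
GFP positive mean as a percentage of the GFP negative value on a log axis, for the 41 lower members by pathway and for markers of other lateral wall cells. Horizontal bars are medians. Fibrocyte markers lie between 4.43% and 7.57%, and the lower members between 5.29% and 49.2%.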

How the data were processed

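RNA of sorted GFP positive and GFP negative cells was sequenced. Per the submitters' processing notes, STAR and genome build mm9 were used. For the counting tool, annotation, normalisation and test, the entry is "not given in the sources used here". Deposited values are signal on a normalised read count scale, with the authors' fold ratio, log2 fold change and p-values. The authors' table lists genes whose adjusted p does not exceed 0.00986 and whose change is 2-fold or more, 4197 in all. Those p-values were not used as results.

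Whole reads were recovered from the steps of the normalised values. In the GFP negative library 100% of values were whole reads within 1e-06 reads, and 100% of GFP positive averages fitted exactly 1 pair of whole counts. Size factors were 1.07 for library A, 0.991 for library B and 0.958 for the GFP negative library. The sample titles carry the marks 68K and 180K, which are not explained, and the labels do not say which of A and B is the labelled GFP positive sample. Whether the libraries are separate animals is not given in the sources used here, and a difference between A and B may be technical. Log2 ratios used a pseudocount of 1, which understates the change of low genes. A 4-fold call also needed the higher fraction to reach 5. No test was used for the main values, since the GFP negative fraction has 1 library.

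As an alternative, edgeR 4.0.16 (R 4.3.3) was run on the recovered reads and called all 4197 listed genes at an FDR of 0.05, 1831 higher and 2366 lower. The listing by the authors' test decides that count. The recovery and the fit were tested on simulated data. Other steps used Python 3.11.15. Exon lengths were from GENCODE for GRCm38, used for length and exon overlap only, and promoter sequences from RefSeq.

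All members but 1 are named with values, and that member and 1 marker gene are not reported by name here, though they stay in the counts and sums. Further pathway genes are named when they differed by 4-fold and reached a value of 1000. The members and lists were chosen with earlier results of these data known.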

Additional observations from a re-analysis of the deposited data

How the results depend on the processing

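All values rest on 1 GFP negative library and on genes that passed the authors' threshold, so the counts describe a selected table. Of 294 recomputed gene values 292 kept their sign, and of 169 recomputed list medians 166 did. For genes this was partly fixed in advance. A different pseudocount cannot change a sign, and scaling to the listed total shifts by less than the smallest listed log2 size, 1.001. Leaving out library A or B could not change the sign of a lower member. A mean at least 2-fold below the GFP negative value keeps both libraries at or below that value. For the 8 higher members a sign could have changed, and none did. In size, 168 of the 294 values stayed within the counting interval, and 124 moved beyond it with the same sign. Centring on the median listed gene, a shift of 1.31 on the log2 scale, left 8 members higher and 9 lower by 4-fold, and 11 and 15 other pathway genes. Medians became -1.02 for all members, -0.72 for Wnt, -1.44 for Notch, -1.03 for BMP and TGF-beta, and -0.84 for other pathway genes. It reversed Fzd1 to 0.15, Sfrp2 to 0.29 and the Hes and Hey median to 1.02, by its own construction. Scaling to the total of listed reads, a shift of -0.37, gave medians of -2.69, -3.12 for Notch, -2.71 for BMP and TGF-beta, and -2.52 for other genes. Means in place of medians were -1.59, -1.36 for Wnt, -2.05 for Notch, -1.62 for BMP and TGF-beta, and -1.78 for other genes. A 2-fold rule counted 8 members and 11 other genes higher, which is every one listed as higher. Since listing needs at least a 2-fold difference, that count was fixed in advance. An 8-fold rule counted 3 members higher and 11 lower, and 19 other genes lower. When the higher fraction had to reach 1000, 3 members were higher and 17 lower, the Wnt median was -1.40, and the medians of Wnt ligands and secreted Wnt modulators reversed to 1.07 and 2.22, with fewer genes in each list. With library A or B alone, members higher by 4-fold numbered 4 to 6 and lower 29 to 32, other genes 5 and 41, and medians ran from -2.33 to -2.31 for all members, -2.11 to -1.78 for Wnt, -2.83 to -2.68 for Notch, -2.41 to -2.36 for BMP and TGF-beta, and -2.25 to -2.17 for other genes. No paired analysis was possible because the GFP negative fraction has 1 library. Genes with few reads, such as Sfrp5, are limited by depth.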
